A study of Homo sapiens with 15 samples.

Results

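The non-clustered protocadherins examined here are PCDH1, PCDH7, PCDH8, PCDH9, PCDH10, PCDH17, PCDH18 and PCDH19. They were taken by symbol from a table of 20806 gene entries, and all 8 have an entry. The set was selected on the measured level of PCDH7 in these libraries, which was higher in the knockout than in the control and lower again with wild-type ATGL. Its values in the lines that showed this are therefore given as a description, without a p-value. RNA was measured by poly(A) sequencing in C4-2, a castration-resistant human prostate cancer cell line of luminal type, as 5 lines with 3 libraries each. Scramble is the control line and KO is the line knocked out for PNPLA2, which encodes adipose triglyceride lipase (ATGL), the enzyme that starts the breakdown of stored triglyceride. KO_WT, KO_S47A and KO_S404A are knockout lines that received wild-type ATGL, the lipolytically inactive S47A protein or the S404A protein. All lines grew at 5 mM glucose with 5% dialyzed serum. Each genotype is a single line, and the sources used here do not say whether the lines are clones or pools. The labels do not state that replicate libraries came from separate cultures, so p-values cover the spread between these libraries, which may be technical.

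Protocadherins are single-pass membrane proteins of the cadherin superfamily that bind their own kind on the neighbouring cell. The clustered protocadherins (PCDHA, PCDHB and PCDHG) lie side by side in gene arrays, whereas the non-clustered ones are scattered over the genome. Non-clustered members fall into the delta-1 class (here PCDH1, PCDH7 and PCDH9), which carries a cytoplasmic motif for protein phosphatase 1, and the delta-2 class (here PCDH8, PCDH10, PCDH17, PCDH18 and PCDH19), several of which bind the WAVE complex of actin assembly. Most are known from the nervous system, where they sort cells and axons. PCDH1 is an epithelial protein, known in the airway, and PCDH7 has been studied in heart, brain and several carcinomas.

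The promoters of the 2 members with clear expression are printed because the lines differed in the RNA of one far more than in that of the other. Both come from the RefSeq promoter table on GRCh38.p14, run from 250 bases before to 50 bases after the annotated start, and are written 5′ to 3′ on the gene's strand with each CG in capitals. The PCDH7 window is chr4:30720119-30720418 on the plus strand and the PCDH1 window is chr5:141869578-141869877 on the minus strand.
PCDH7: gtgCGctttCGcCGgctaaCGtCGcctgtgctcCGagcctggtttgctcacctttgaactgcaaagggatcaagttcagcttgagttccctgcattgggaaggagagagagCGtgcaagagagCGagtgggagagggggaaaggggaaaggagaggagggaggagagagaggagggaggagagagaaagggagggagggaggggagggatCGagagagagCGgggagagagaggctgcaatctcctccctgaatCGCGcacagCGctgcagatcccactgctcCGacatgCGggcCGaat
PCDH1: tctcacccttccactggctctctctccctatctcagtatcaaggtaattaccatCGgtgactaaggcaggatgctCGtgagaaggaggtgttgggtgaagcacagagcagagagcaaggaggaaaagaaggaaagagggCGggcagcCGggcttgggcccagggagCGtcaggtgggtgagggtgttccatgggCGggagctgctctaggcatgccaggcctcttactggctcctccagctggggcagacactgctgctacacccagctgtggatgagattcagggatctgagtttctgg
The PCDH7 window holds 16 CG and the PCDH1 window 6, against a median of 14 over the 35116 promoters of the table. Their G and C content is alike, at 60.3% and 58.0%. Of the 8 members 7 have an entry, all but PCDH10, and the other 5 hold between 10 (PCDH18) and 26 (PCDH19) CG.

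The 4 short motifs described next were searched on both strands of each window, with overlaps between motifs allowed. CCAAT is present in 6 of the 7 members, all but PCDH1, and in 34.6% of all promoters. A GA repeat, GAGAGAGA, is present in PCDH1, PCDH7, PCDH17 and PCDH18 and in 3.41% of all promoters. TATAAA is present in PCDH8 (11.5% of all promoters), while the E-box CACGTG is in no member (7.26%). These are letter matches in 1 window per gene, and no binding or methylation was measured here.

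Counts in genes ran from 40846694 to 64345775 per library, so that 3 counts, the upper limit that a count of 0 allows, correspond to 0.0466 to 0.0734 CPM, the usual unit of counts scaled to library size. All other CPM values are also scaled with TMM factors. All 10 luminal prostate markers, such as KLK3, stood at 10 CPM or more in every library. The summed level ran from 12.3 to 27.0 CPM for 5 fibroblast markers, from 5.06 to 14.7 for 4 endothelial markers, from 10.2 to 28.5 for the 4 neural markers with an entry and from 0.039 to 0.319 for 4 blood markers. Nearly all of the first 3 sums came from COL1A1 and PDGFRB, from VWF and from MAP2. Under 1 CPM in every library were 3 of the fibroblast, 3 of the endothelial, 2 of the neural and 4 of the blood markers. In 4 of the 5 lines the libraries numbered 1 and 2 were closer to each other over all genes than to library 3, so values without library 3 are given where they differ. PNPLA2 stood at 54.3, 47.1 and 45.3 CPM in Scramble and at 13.0, 11.9 and 9.11 in KO.

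Of the 8 members, PCDH1 and PCDH7 were the 2 that passed 1 CPM in any library. PCDH18 also passed the filter on low counts, so 3 members were tested, and the other 5 did not pass it. Per length, in FPKM, which scales counts to gene length and library total, PCDH1 ran from 4.70 to 8.53 with a median of 6.24 over the 15 libraries. PCDH7 ran from 0.752 to 5.54 FPKM with a median of 2.86. The remaining 6 members together made up 0.222% to 0.697% of the FPKM summed over the 8 members, depending on the line. Among these 8 members, the RNA was thus almost all from 2 delta-1 members, PCDH1 and PCDH7, as the plot of raw counts per member shows. PCDH20, which is not among the 8, is described below.

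**Figure D1:**
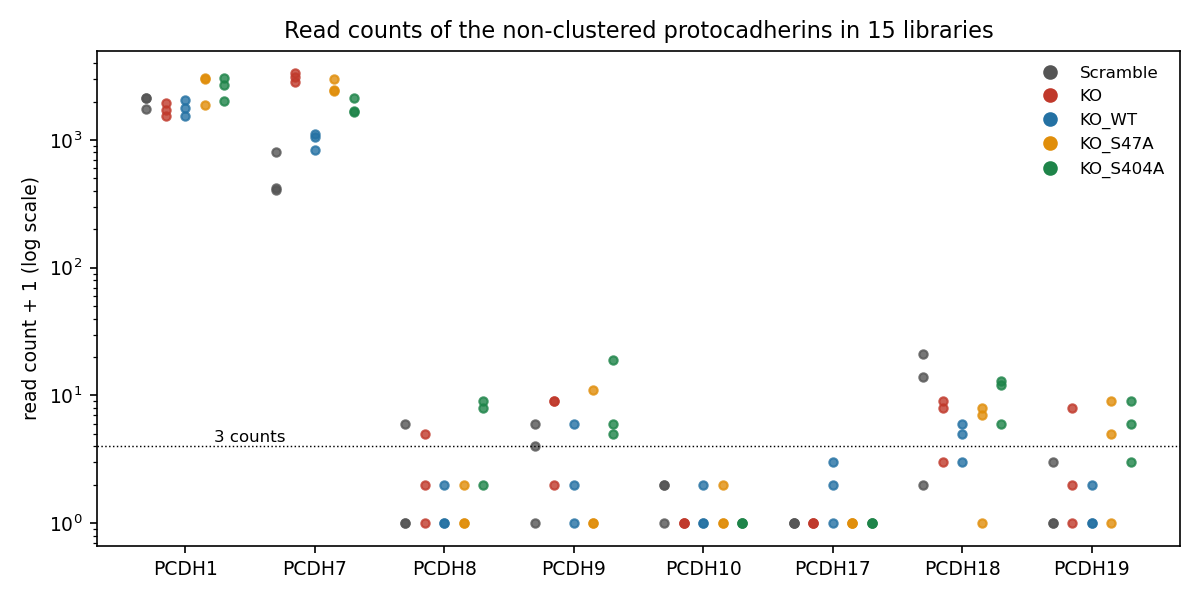
Raw counts plus 1, on a log axis, of the 8 non-clustered protocadherins in each of the 15 libraries, with the line given by colour and a dotted line at 3 counts. PCDH1 (1543 to 3055 counts) and PCDH7 (403 to 3330) stand far above the others, none of which exceeded 20 counts in a library.

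PCDH7, the delta-1 member also called BH-protocadherin for brain and heart, was lowest in Scramble and highest in KO. The Scramble libraries 1 to 3 held 10.1, 8.72 and 15.7 CPM of PCDH7. In KO they held 58.6, 60.0 and 58.7 CPM, which are raw counts of 2852, 3330 and 3140 against 403, 421 and 805 in Scramble. Every KO library stood above every Scramble library, and the 3 KO libraries lay close together while Scramble 3 stood apart from Scramble 1 and 2. The log2 fold change of KO minus Scramble was 2.36 (SE 0.19), a 5.13-fold higher level. In these bulk libraries more cells with PCDH7 RNA and more RNA per cell cannot be told apart.

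With an ATGL protein put back, the PCDH7 values of the 3 addback lines did not overlap. By edgeR on all 15 libraries without the replicate block, PCDH7 was not called in any comparison between these lines. KO_WT libraries held 21.9, 19.9 and 23.7 CPM of PCDH7, below all libraries of KO and above all of Scramble. KO_S404A held 27.0, 31.8 and 32.1 CPM, above KO_WT and below KO. KO_S47A held 45.2, 46.1 and 61.1 CPM, a range that includes all 3 KO libraries, with the third library well above the other two. The order of the mean PCDH7 levels was Scramble (11.5 CPM), KO_WT (21.8), KO_S404A (30.3), KO_S47A (50.8) and KO (59.1). Neighbours in that order did not overlap, except KO_S47A and KO, which overlapped through KO_S47A 3 alone.

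**Figure D2:**
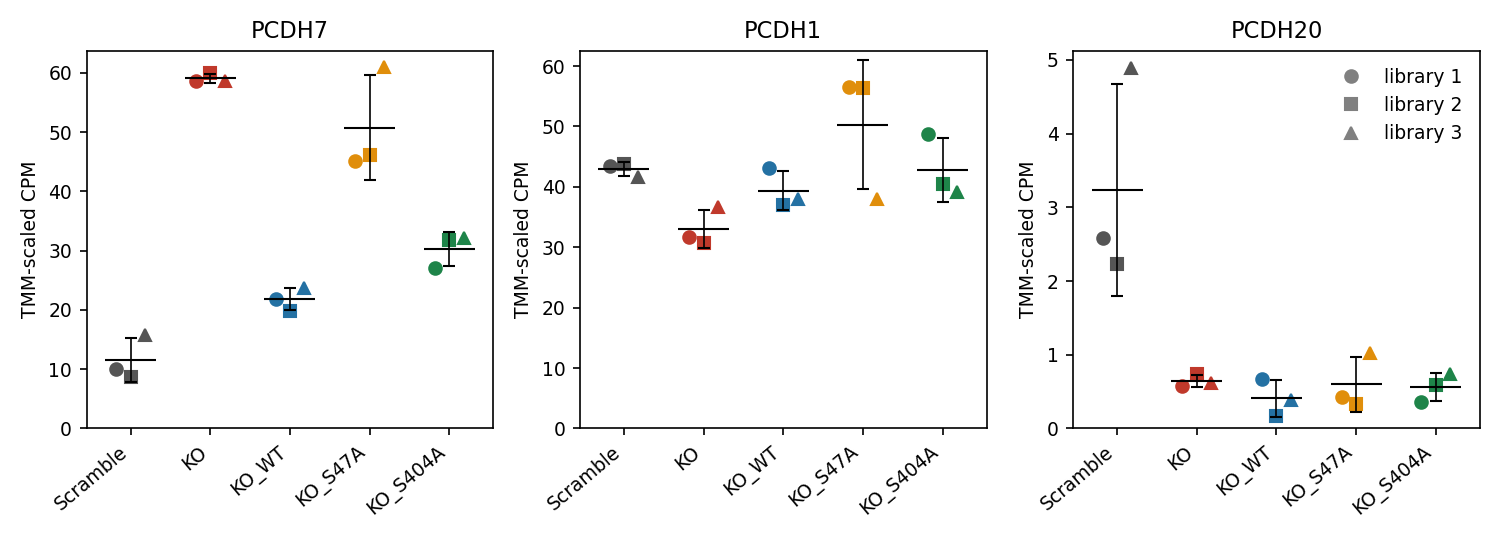
TMM-scaled CPM of PCDH7, PCDH1 and PCDH20 in each library by line, with the marker shape giving the library number, a line at the mean and bars of 1 SD (n = 3). PCDH7 climbs from Scramble (8.72 to 15.7 CPM) over KO_WT and KO_S404A to KO_S47A and KO (58.6 to 60.0), PCDH1 is lowest in KO, and PCDH20 is high in Scramble alone.

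Expressed against the knockout, the log2 fold change of PCDH7 was −1.44 (SE 0.18) in KO_WT, −0.96 (SE 0.18) in KO_S404A and −0.22 (SE 0.18) in KO_S47A. The 95% interval for KO_S47A minus KO ran from −0.61 to 0.17, which includes 0. Against Scramble the log2 fold change of PCDH7 was 0.92 (SE 0.18) in KO_WT, 1.39 (SE 0.19) in KO_S404A and 2.14 (SE 0.19) in KO_S47A. These comparisons share the KO or the Scramble libraries, and PCDH7 remained above the control level in all 3 addback lines. KO_WT minus KO_S47A gave −1.22 (SE 0.18) and KO_S404A minus KO_WT gave 0.47 (SE 0.18).

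One comparison of PCDH7, KO_S404A minus KO_S47A, used no library of Scramble, KO or KO_WT, the lines whose differences led to its choice. The members were still chosen with earlier results of these data known, and the fit took its spread from all 15 libraries. This comparison is therefore not independent of the choice. The level was 30.3 CPM in KO_S404A and 50.8 CPM in KO_S47A, and the 3 libraries of one line did not overlap those of the other. The log2 fold change was −0.74 (SE 0.18, 95% interval −1.13 to −0.36). By edgeR's quasi-likelihood test the unadjusted p was 0.00111 and the Benjamini-Hochberg adjusted p over 14246 genes was 0.679, so PCDH7 was not called. In this comparison 0.00702% of all genes were called and 0 of the 3 tested members, with 1 of them, PCDH7, at an unadjusted p under 0.05. DESeq2 also called 0 members, and so did edgeR with the replicate block, which called 0.0140% of all genes.

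The size of the PCDH7 difference was also set against that of other genes. Among 9239 genes whose mean was 10 CPM or more, it ranked 9 by absolute log2 fold change in KO minus Scramble and, for the wild-type addback against KO, 6. It ranked 19 in KO_S404A minus KO and 3764 in KO_S47A minus KO. In KO_WT minus KO_S47A it ranked 1 and in KO_S404A minus KO_S47A it ranked 16. The first 4 of these comparisons use libraries that served to choose PCDH7, as does KO_WT minus KO_S47A, so the ranks describe the choice as much as the gene.

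**Figure D3:**
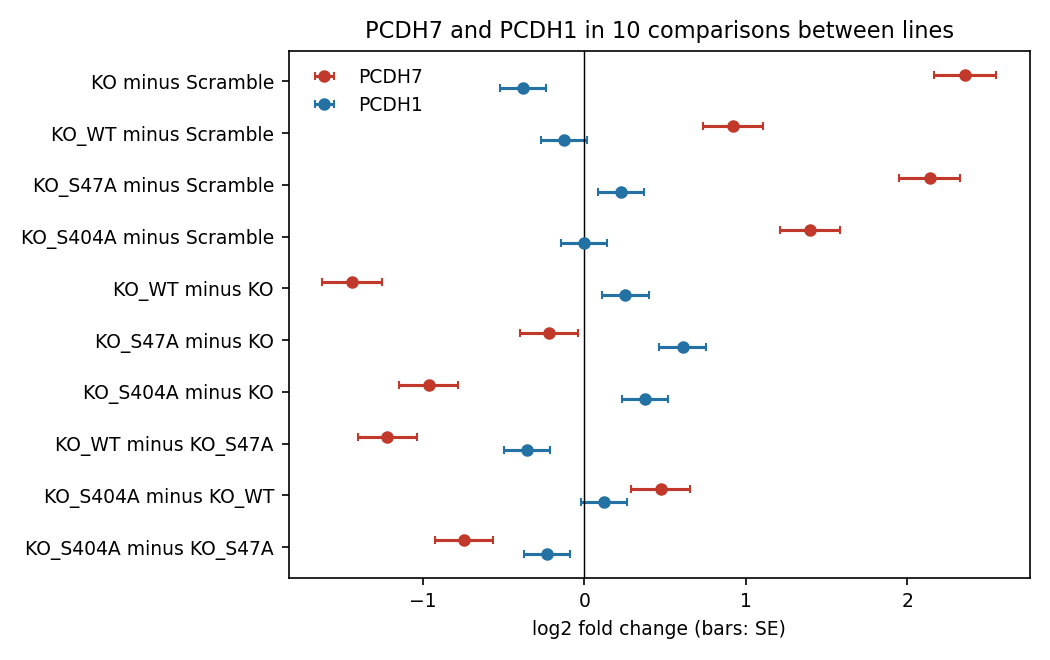
Log2 fold change with its standard error of PCDH7 and PCDH1 in the 10 comparisons between lines, from 1 edgeR fit to all 15 libraries. PCDH7 lies between 0.92 and 2.36 in each line minus Scramble and between −1.44 and −0.22 in each addback line minus KO, while PCDH1 stays between −0.38 and 0.61.

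Library 3 had the highest PCDH7 level in 4 of the 5 lines. Over the mean of libraries 1 and 2 its log2 difference was 0.74 in Scramble, 0.42 in KO_S47A, 0.18 in KO_WT, 0.12 in KO_S404A and −0.01 in KO. Without library 3 of every line, the log2 fold change of PCDH7 was 2.66 in KO minus Scramble, −1.50 in KO_WT minus KO and −1.01 in KO_S404A minus KO. It was −0.38 in KO_S47A minus KO, where KO_S47A 1 and 2 (45.2 and 46.1 CPM) lay below KO 1 and 2 (58.6 and 60.0 CPM). The overlap of KO_S47A with KO thus came from KO_S47A 3.

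PNPLA2 itself did not order the lines as PCDH7 did. PNPLA2 stood at 213, 207 and 241 CPM in KO_WT, at 113, 110 and 164 in KO_S47A and at 303, 443 and 493 in KO_S404A. All addback libraries thus held more PNPLA2 RNA than any Scramble library, yet more PCDH7 RNA too. KO_S404A had the highest PNPLA2 and a PCDH7 level above that of KO_WT. The level of PNPLA2 and the kind of protein added differ together between the lines and cannot be told apart. Protein levels were not analysed here.

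**Figure D4:**
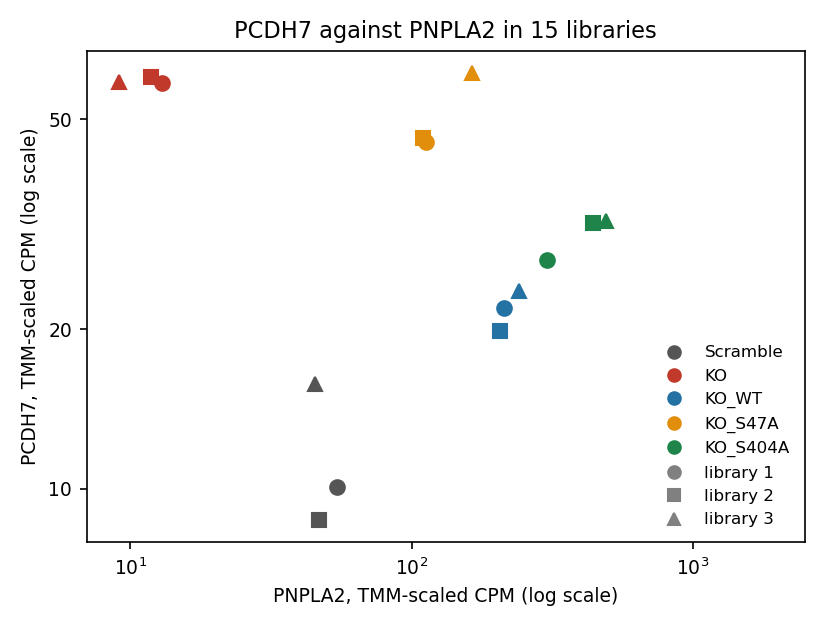
PCDH7 against PNPLA2 in TMM-scaled CPM, both on log axes, 1 point per library and 1 colour per line. The lines form separate groups: KO at low PNPLA2 and high PCDH7, Scramble at intermediate PNPLA2 and the lowest PCDH7, and the addback lines at 110 to 493 CPM of PNPLA2 with PCDH7 between 19.9 and 61.1.

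PCDH1, the epithelial delta-1 member, differed less between lines than PCDH7, except in KO_S47A minus KO, and its lowest values were those of KO. By absolute log2 fold change among the 9239 genes whose mean was 10 CPM or more, its rank ran from 280 (KO_WT minus KO_S47A) to 9077 (KO_S404A minus Scramble). It stood at 43.4, 43.8 and 41.6 CPM in Scramble and at 31.7, 30.6 and 36.6 in KO. All KO libraries were below all Scramble libraries, opposite to PCDH7. The log2 fold change of PCDH1 in KO minus Scramble was −0.38 (SE 0.14, 95% interval −0.69 to −0.07), with an adjusted p of 0.244 by edgeR's quasi-likelihood test. PCDH1 did not pass in this comparison, in which 2.69% of all genes were called, and 0 members other than PCDH7 passed. PCDH7 was picked for this difference, so its place under the threshold is no test and nothing is read from it, here or in the other comparisons with these lines. With the replicate block, which called 8.29% of all genes, again 0 members other than PCDH7 passed.

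In the addback lines PCDH1 stood at 43.0, 37.0 and 38.0 CPM (KO_WT), 56.6, 56.3 and 38.0 (KO_S47A) and 48.8, 40.5 and 39.1 (KO_S404A). Each of these 9 libraries lay above the highest KO library, which held 36.6 CPM. KO_S47A had the largest difference to KO, a log2 fold change of 0.61 (SE 0.14, 95% interval 0.30 to 0.92), and its library 3 lay far below the other two. By edgeR its adjusted p was 0.274, and 0.00702% of all genes and 0 of the 3 tested members were called. With the replicate number as a block, which pairs the libraries of this comparison, the adjusted p of PCDH1 was 0.00658 at a log2 fold change of 0.59, in a fit that called 22.1% of all genes. PCDH1 was also called in KO_S47A minus KO without KO_S47A 3 (log2 fold change 0.78, edgeR adjusted p 0.0418).

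Against KO, the log2 fold change of PCDH1 was 0.38 (SE 0.14, edgeR adjusted p 0.898) in KO_S404A and 0.25 (SE 0.14, adjusted p 0.625) in KO_WT. In these comparisons 0.0211% (KO_S404A) and 0.0281% (KO_WT) of all genes were called. In KO_S404A minus KO 0 members passed, and in KO_WT minus KO 0 members other than PCDH7. Against Scramble it was 0.23 in KO_S47A, −0.13 in KO_WT and −0.004 in KO_S404A, with edgeR adjusted p-values of 0.407, 0.778 and 0.995. There, 3.82%, 3.47% and 3.11% of all genes were called, and 0 members other than PCDH7 passed. Between the addback lines PCDH1 had a log2 fold change of −0.35 in KO_WT minus KO_S47A and 0.12 in KO_S404A minus KO_WT. In both, edgeR called 0% of the genes and 0 members, with 309 and 1239 genes at an unadjusted p under 0.05. In the former DESeq2 called 3 genes and so did edgeR with the replicate block (0.0211% of all genes), 1 of them a member in each case, PCDH7, whose choice used the KO_WT libraries. In the latter DESeq2 called 0 genes.

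PCDH7 and PCDH1 lay on opposite sides in KO, and the balance of these 2 delta-1 members differed between the lines. In KO minus Scramble the log2 fold change was 2.36 for PCDH7 and −0.38 for PCDH1, which was not called. Since PCDH7 was picked for its own difference, the ratios and shares follow from that choice and are a description, not a test. Per length, the FPKM of PCDH1 over that of PCDH7 averaged 6.76 in Scramble (4.48 to 8.51 over the libraries) and 0.947 in KO (0.866 to 1.06). The ratio was 3.07 in KO_WT (2.72 to 3.33), 2.43 in KO_S404A (2.07 to 3.06) and 1.75 in KO_S47A (1.05 to 2.12). KO was below every other line except for an overlap with the lowest KO_S47A library. As shares of the FPKM summed over the 8 members, PCDH1 made up 85.7% in Scramble and 48.4% in KO, and PCDH7 made up 13.6% and 51.2%.

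PCDH9, the third delta-1 member and mainly a gene of the nervous system, gave 68 counts over all 15 libraries. Single libraries held 0 to 18, and 4 of them held 0. The highest value, 18 counts, was in KO_S404A 1, beside 4 and 5 in the other libraries of that line, so no line stood apart.

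The delta-2 members were at or near the limit of detection. PCDH18, which binds the adaptor DAB1, gave the most counts of them, with 1, 13 and 20 in Scramble, 2, 7 and 8 in KO and 4, 2 and 5 in KO_WT. KO_S47A held 6, 0 and 7 counts and KO_S404A held 11, 5 and 12. The ranges overlap, and in KO minus Scramble the log2 fold change was −1.11 (SE 0.88, edgeR adjusted p 0.709). Over the 10 comparisons PCDH18 had an adjusted p of 0.404 at the lowest.

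PCDH19, an X-linked gene known from an epilepsy of girls, gave 38 counts in all, at most 8 in a library and 0 in 6 of them. PCDH8, which in neurons takes part in the uptake of N-cadherin from the surface, gave 28 counts with at most 8 in a library and 0 in 7. PCDH10 and PCDH17, both known to be silenced by promoter methylation in several carcinomas, gave 4 and 3 counts in all, with 0 in 11 and 13 libraries. No library held more than 1 count of PCDH10 or 2 of PCDH17, so a difference between lines was not detectable at this depth.

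Among the 4 other non-clustered protocadherins, PCDH20 had the opposite pattern to PCDH7 between KO and Scramble. PCDH20 is a less studied protocadherin, at a low level in these cells. Scramble held 2.58, 2.24 and 4.89 CPM and KO held 0.575, 0.739 and 0.617. KO_WT (0.670, 0.167 and 0.383 CPM), KO_S47A (0.426, 0.338 and 1.03) and KO_S404A (0.354, 0.585 and 0.742) lay as low as KO. Every Scramble library was thus above all 12 others, and no ATGL protein was accompanied by a return to the control level.

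PCDH20 fell in KO minus Scramble with a log2 fold change of −2.32 (SE 0.50, edgeR adjusted p 0.0238). It fell by 2.97 on the log2 scale in KO_WT (adjusted p 0.00596), by 2.44 in KO_S47A (0.0158) and by 2.53 in KO_S404A (0.0139), each by edgeR against the same Scramble libraries. In KO minus Scramble the call was lost without Scramble 3 (adjusted p 0.107), KO 1 (0.107), KO 2 (0.0873) or KO 3 (0.0992), and with libraries 1 and 2 only (0.0613). The log2 fold change stayed between −2.55 and −1.90 with any 1 library left out and was −1.86 with libraries 1 and 2 only. The call was lost in KO_S47A minus Scramble without Scramble 3 (0.0888), KO_S47A 1 (0.0946) or KO_S47A 2 (0.0810) and in the fit of these 2 lines (0.0630), and in KO_S404A minus Scramble without Scramble 3 (0.0706), KO_S404A 1 (0.0596) or KO_S404A 2 (0.0557). With any 1 library left out its log2 fold change ran from −3.08 to −2.01 in KO_S47A and from −2.78 to −2.10 in KO_S404A. Of the rest of this list, PCDH12, an endothelial protocadherin, gave 1 to 17 counts per library, PCDH11X gave 0 to 2, and the Y-linked copy of PCDH11X is not described here.

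The clustered protocadherins, with 57 entries of which 24 were tested, had 0 members called in KO minus Scramble, against 2.69% of all genes, with 5 at an unadjusted p under 0.05 and 0 called by DESeq2. Their median log2 fold change was 0.69, against 0.02 for all genes, and 21 of the 24 were above 0. Most entries had a mean under 1 CPM in every line, such as PCDHGA7 with 0.0287 CPM in Scramble and 0.154 in KO. Single fold changes at this level are uncertain. The 23 PCDHG entries summed to 6.47 to 10.0 CPM in Scramble, 11.4 to 12.2 in KO and 11.2 to 14.9 in KO_WT. In KO_S47A they summed to 12.4 to 13.7 CPM and in KO_S404A to 11.4 to 16.3. Each Scramble library was below all others, and the addback lines overlapped KO. In each addback line minus Scramble edgeR called 0 of the 24, against 3.47%, 3.82% and 3.11% of all genes in KO_WT, KO_S47A and KO_S404A. At an unadjusted p under 0.05 by edgeR were 6, 7 and 10 of the 24, and 2114, 2682 and 2243 of all 14246 genes. DESeq2 called 4, 4 and 6 of them, and 838, 1063 and 849 genes in all. The replicate block called 3, 3 and 4, all higher than in Scramble, where it called 10.0%, 19.5% and 10.7% of all genes. Members of the PCDHA cluster, and of the PCDHG cluster, share their last exons, so how reads were split between the single entries is uncertain.

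Of 26 large and atypical cadherins, 18 were tested and 3 rose in KO minus Scramble, all of them desmosomal cadherins, which join epithelial cells at desmosomes, where 2.69% of all genes were called. DSG2, the desmoglein of simple epithelia, rose from 268, 259 and 299 CPM in Scramble to 384, 403 and 383 in KO (log2 fold change 0.50, SE 0.11, edgeR adjusted p 0.0257). DSC2 rose from 53.6, 52.0 and 54.9 to 81.9, 74.1 and 66.8 CPM (0.47, SE 0.10, adjusted p 0.0210 by edgeR). DSC1 rose from 3.70, 2.98 and 2.93 to 6.99, 6.67 and 5.82 CPM (1.02, SE 0.22, adjusted p 0.0249 by edgeR). The list's median log2 fold change was 0.13 against 0.02 for all genes, and 11 of 18 were above 0.

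With single libraries left out the differences stayed about as large, but the calls did not all hold. The log2 fold change ran from 0.95 to 1.11 for DSC1, 0.44 to 0.57 for DSG2 and 0.40 to 0.54 for DSC2, in fits that called 205 to 291 genes instead of 383. DSC1 lost its call without any one of the 6 libraries (edgeR adjusted p 0.0513 to 0.124), DSG2 without Scramble 1, without Scramble 2 or without any one KO library (0.0721 to 0.162) and DSC2 without any one Scramble library, without KO 1 or without KO 2 (0.0545 to 0.107). In the addback lines the 3 genes were not called against KO by edgeR without the replicate block. DSG2 stood at 316, 317 and 337 CPM in KO_WT and at 312, 315 and 350 in KO_S404A. Both ranges lay below every KO library and above every Scramble library, while KO_S47A (302, 293 and 396) overlapped both lines. DSC2 (62.9, 67.7 and 60.3 CPM) and DSC1 (5.34, 6.08 and 4.02) in KO_WT each overlapped KO. In KO_S404A, DSC2 (68.8, 72.9 and 58.7 CPM) overlapped KO and DSC1 (3.04, 4.25 and 3.36) overlapped Scramble.

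Among 29 classical cadherins and catenins, 13 were tested and 1 fell, CDH19, a cadherin known from the neural crest, against 2.69% of all genes called. It stood at 0.801, 1.16 and 1.31 CPM in Scramble and at 0.205, 0.0901 and 0.243 in KO (log2 fold change −2.59, SE 0.57, edgeR adjusted p 0.0255). Leaving out any of Scramble 2, Scramble 3 or the KO libraries ended the call (0.0648 to 0.128), although the log2 fold change stayed between −2.88 and −2.27 with any 1 library left out, as did using libraries 1 and 2 only (0.0665). With the replicate block, which called 8.29% of all genes, CDH3, P-cadherin, was called as well (−0.84, SE 0.12, adjusted p 0.000522 by edgeR). E-cadherin, CDH1, the main adhesion protein of luminal cells and named here after its values were seen, had 366 CPM in Scramble and 342 in KO (−0.10, edgeR adjusted p 0.760). The list's median was −0.26. DESeq2 called 2 genes of this list in KO minus Scramble and 667 genes in all.

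The 16 reported intracellular partners of protocadherins include the catalytic subunits of phosphatase 1, SET and the WAVE complex. The list also holds TAF1 by its symbol, although the protein described under that name with protocadherins is the product of SET. Of these, 14 were tested and 0 were called in KO minus Scramble by edgeR, against 2.69% of all genes, with a median log2 fold change of 0.07. At an unadjusted p under 0.05 there was 1, TAF1, a subunit of the general transcription factor TFIID. DESeq2 called 1 and the replicate block, at 8.29% of all genes, called TAF1 (−0.56, SE 0.13, edgeR adjusted p 0.0146, against 0.0863 without the block). SET, PPP1CA and NCKAP1, named after their values were seen, stood between 596 and 815, 198 and 236, and 124 and 149 CPM over the 15 libraries. These partners were thus present in every library.

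No gene of these 5 lists was called in an addback line minus KO by edgeR without the block, where it called 0.0281% (KO_WT), 0.00702% (KO_S47A) and 0.0211% (KO_S404A) of all genes, so that 0 is the background rate. With the block, KO_S47A minus KO called 5 of 18 large and atypical cadherins, 2 of 13 classical cadherins and catenins and 3 of 14 partners, where 22.1% of all genes were called. Of the 5 large and atypical cadherins, DSC1 (−0.70, adjusted p 0.0277), DSG2 (−0.25, adjusted p 0.0479) and DSC3 (−1.02, adjusted p 0.0268) fell by edgeR with the block. CLSTN3 (0.48, adjusted p 0.00439) and RET (1.70, adjusted p 0.0219) rose by the same edgeR fit. DSC1 and DSG2 had been higher in KO than in Scramble, and the 2 comparisons share the KO libraries. DSC2, also higher in KO than in Scramble, was not called.

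Over the log2 CPM of the 15 libraries, the genes most like PCDH7 in level were found among 12084 genes whose mean was 1 CPM or more. Libraries of a line share their source, so Pearson's r is given as a description only. CBLN2, a secreted cerebellin that organises synapses, came first (r = 0.90), with 37.0 CPM in Scramble and 85.8 in KO. Its mean was 45.1 CPM in KO_WT, 45.5 in KO_S404A and 76.5 in KO_S47A. It was followed by ECD (0.87), ZNF552 (0.85), NTNG1, a netrin-G of axons (0.84), SLC47A1, a cation exporter (0.83), TBX5, a heart and limb transcription factor (0.83), ACADL, an acyl-CoA dehydrogenase (0.82), the scaffold IQGAP1 (0.82), DSG2 (0.82) and the RNA-binding HNRNPL (0.81). Not all follow PCDH7 in each line, since ACADL stood at 8.62 CPM in Scramble and 38.7 in KO but stayed at 34.1 in KO_WT.

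The genes most opposite to PCDH7 were WLS, the carrier that brings Wnt proteins to the surface (r = −0.95), CCDC85A (−0.94), SLC23A1, a vitamin C transporter (−0.93), B3GAT3, an enzyme of proteoglycan synthesis (−0.91), and C10orf4 (−0.90). WLS stood at 20.9 CPM in Scramble, 12.7 in KO_WT, 11.6 in KO_S404A, 7.74 in KO_S47A and 5.65 in KO, the order of PCDH7 turned around. The list depends on the libraries used: with libraries 1 and 2 only, 2 of the 10 most like genes and 4 of the 5 most opposite genes were the same, and over the 5 line means 2 of the 10 and 2 of the 5. Among cadherins, DSC2 had an r of 0.78, DSC1 0.52 and PCDH1 −0.23.

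**Figure D5:**
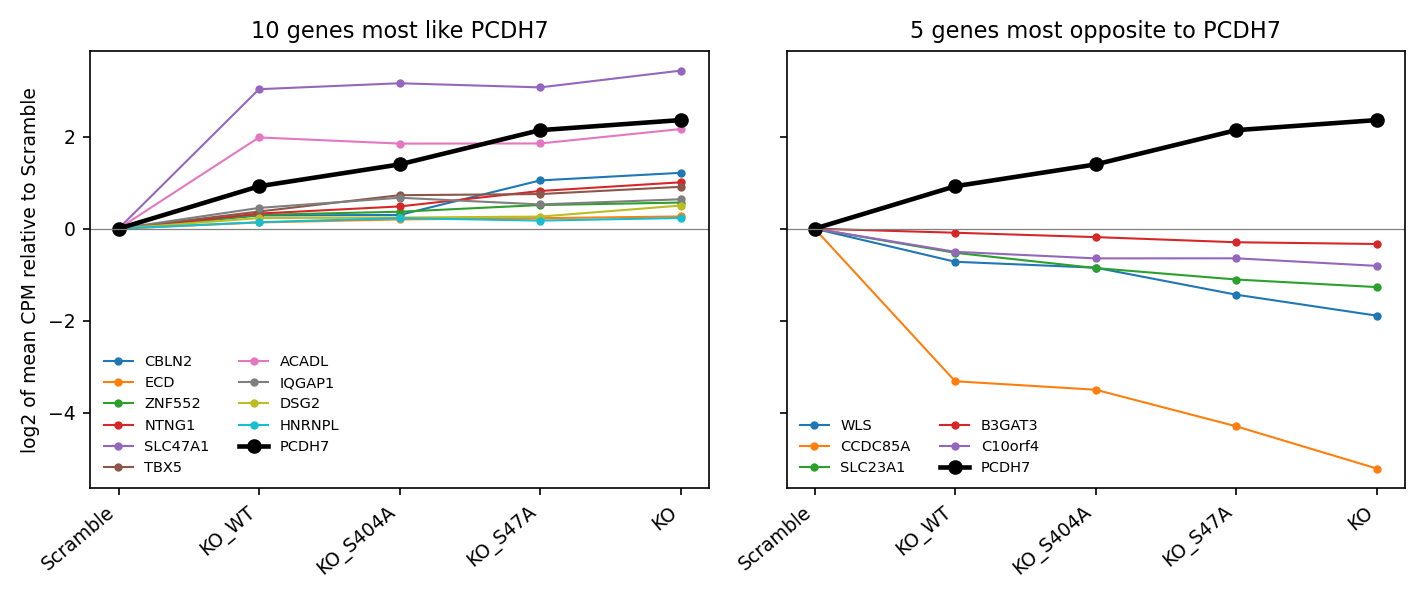
Log2 of the mean CPM of each line relative to Scramble for the 10 genes most like PCDH7 (left) and the 5 most opposite (right), with PCDH7 in black. CBLN2 is highest in KO and KO_S47A as PCDH7 is, ACADL stays high in all lines other than Scramble, and WLS runs opposite.

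The genes beside PCDH7 on the chromosome were compared in the same way. In the RefSeq gene order of GRCh38.p14 the 3 nearest tested genes before it are RBPJ, TBC1D19 and STIM2, with log2 fold changes of 0.15, 0.09 and 0.03 in KO minus Scramble (edgeR adjusted p 0.544, 0.930 and 0.975). After it come ARAP2 (−1.15, SE 0.42, 0.226), C4orf19 (0.86, SE 0.37, 0.334) and RELL1 (0.18, SE 0.35, 0.910). None of the 6 was called in either KO minus Scramble or the wild-type addback minus KO, and ARAP2 and C4orf19 stood under 2 CPM in both lines.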

How the data were processed

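The authors deposited for each of the 15 libraries a table of raw counts per gene and FPKM. Tools named in the submitters' processing notes are CASAVA and STAR, without versions, and the file names point to htseq-count. The genome build, annotation and strand setting are not stated in the sources used here. Overlapping and antisense genes therefore cannot be told apart. The deposited FPKM, recomputed from counts and gene lengths, matched within a relative deviation of 9.52e-14 and served only to compare genes per length. Unassigned reads, 13.2% to 20.6% of a library in 5 entries, were left out. Replicates differed by more than sampling noise (chi-square per degree of freedom 8.11 to 239 over genes with at least 20 counts).

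In R 4.3.3, edgeR 4.0.16 with filterByExpr (14246 genes kept) and TMM scaling fitted 1 mean per line to all 15 libraries with a quasi-likelihood model, with 10 residual degrees of freedom. CPM are TMM-scaled. Adjusted p-values are Benjamini-Hochberg over all genes of a comparison, called under 0.05. The SE is the absolute log2 fold change over the square root of F, and intervals are 95%. Alternatives were DESeq2 1.42.0, RLE scaling, no filter, fits of 2 lines, a replicate block, libraries 1 and 2 only, and leaving out each library. The fit was tested on simulated data. A further promoter motif was searched and is not reported here.

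The members and lists were chosen with earlier results of these data known. Named are the 8 members, list genes called in KO minus Scramble or an addback minus KO, the 10 genes most like and 5 most opposite to PCDH7, and its 3 neighbours on each side. Same-numbered libraries deviated together with correlations of 0.0197 to 0.675 over comparisons, over 0.1 for every pair in 8 of 10 comparisons. The exceptions were KO_S404A minus Scramble and KO_S404A minus KO. For libraries numbered 3 the same-number correlation ran from 0.404 to 0.675 over the 10 comparisons. Their highest correlation with a different number was negative in every comparison, from −0.511 to −0.209. For the other numbers, libraries with different numbers correlated more than same-numbered ones in some cases and less in others. The main fit did not pair libraries in any comparison, so it did not take account of the deviation shared by libraries numbered 3. The replicate block, which pairs same-numbered libraries, was run as an alternative.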

Additional observations from a re-analysis of the deposited data

How the results depend on the processing

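Counts of called members are limited to the 3 tested, and PCDH7, which was picked for its change, makes up most of them. In KO minus Scramble and KO_S47A minus Scramble the count was 1 and became 2 with libraries 1 and 2 only, where 770 and 2158 genes were called in all (383 and 544 with 15 libraries). In KO_WT minus Scramble it was 1 and became 0 in the fit of 2 lines (344 genes called in all, against 494). With single libraries left out it lay between 0 and 1, with 240 to 440 genes called in all. In KO_WT minus KO it was 1, and 0 to 1 with libraries left out (3 to 5 genes called in all, against 4). In KO_S47A minus KO it was 0, with 1 gene called in all. It became 1 with the replicate block (3150 genes called in all) and 2 with libraries 1 and 2 only (3098). DESeq2 gave 1 (31 genes), and fits with libraries left out gave 0 to 1 (1 to 15 genes). In KO_S404A minus KO it was 0, with 3 genes called in all. It became 1 with the replicate block (14 genes called in all), 2 with libraries 1 and 2 only (403) and 1 with DESeq2 (8). In KO_WT minus KO_S47A it was 0, with 0 genes called in all. It became 1 with the replicate block (3 genes called in all), with libraries 1 and 2 only (2) and with DESeq2 (3). The cause was not tested. PCDH1 in KO_S404A minus Scramble (log2 fold change −0.004) turned to 0.034 with libraries 1 and 2 only and ran from −0.11 to 0.057 with single libraries left out. PCDH1 passed the threshold with libraries 1 and 2 only in KO minus Scramble (−0.48, edgeR adjusted p 0.0311), KO_S47A minus Scramble (0.37, 0.0447), KO_S47A minus KO (0.86, 0.00140) and KO_S404A minus KO (0.52, 0.0367), and with DESeq2 in KO_S47A minus KO (0.61, 0.0495). The log2 fold change of PCDH7 kept its direction in all settings, from 2.18 to 2.66 in KO minus Scramble, −1.50 to −1.36 in KO_WT minus KO and −0.84 to −0.61 in KO_S404A minus KO_S47A. In the last, the adjusted p with single libraries left out ran from 0.123 to 0.998. Over all genes the replicate block raised the number called in KO minus Scramble from 383 to 1181 and in KO_S47A minus KO from 1 to 3150. The 6 members at 0 to 20 counts per library allow no statement on differences at this depth.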
